A study of Homo sapiens with 74 samples.

Results

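RNA was sequenced in K562, an established human erythroleukaemia cell line grown from a patient with chronic myeloid leukaemia, after knockout (KO) of DOT1L or of ENL. The comparison described here sets the 3 libraries of the DOT1L-/- line directly against the 3 libraries of the ENL-/- line, gene by gene. These are 6 of the 74 samples of the series. The other K562 RNA libraries are the wild type controls, which were left out of the test and are given beside it as a reference level. All groups are the same cell line with no treatment named, and the labels do not say how the knockouts were made, how many clones they came from, or whether replicates were separate cultures. The p-values therefore measure the spread between these libraries, which may be technical. The labels name a sequencing lane for the DOT1L KO and control libraries and none for the ENL KO libraries, so a difference in batch and a difference between the knockouts cannot be told apart.

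DOT1L is the enzyme that methylates lysine 79 of histone H3, a mark laid down over the first part of transcribed genes. ENL, whose gene symbol is MLLT1, binds acetylated histones through its YEATS domain. It is found in a complex with DOT1L and also in the super elongation complex, which brings the kinase P-TEFb to RNA polymerase II. Fusions of KMT2A with ENL or with other members of these complexes drive acute leukaemias. Loss of the enzyme and loss of the reader thus remove different members of one complex, and the direct comparison asks where the transcriptomes of the knockouts part.

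Total counts lay between 20403057 and 29236703 in the DOT1L KO and between 15404944 and 21156979 in the ENL KO. The DOT1L KO libraries held between 17896 and 18243 genes with at least 1 count, the ENL KO libraries between 15970 and 16481, and the controls 16975 and 16977. Control columns 2 and 3 hold the same counts throughout, so the controls were counted as 2 libraries. Levels are given as CPM, fragment counts scaled to a common library total, and differences as log2 of DOT1L KO over ENL KO with the standard error (SE), so a positive value is higher in the DOT1L KO. Where a library has no count for a gene, a level of up to 3 counts is still possible, which corresponds to 0.102 to 0.196 CPM depending on the library and covers counting error only. CPM is not divided by gene length, so levels are compared between libraries and not between genes.

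Both targeted genes were still transcribed in their own knockouts. DOT1L read 186.9, 177.2 and 185.5 CPM in the DOT1L KO libraries against 243.8, 265.4 and 245.6 CPM in the ENL KO libraries, with 271.0 and 257.1 CPM in the controls. The difference was -0.46 (SE 0.053, edgeR quasi-likelihood adjusted p = 1.4e-05). MLLT1 read 153.3, 156.9 and 154.0 CPM in the ENL KO libraries against 228.2, 219.8 and 216.9 CPM in the DOT1L KO libraries, with 214.6 and 219.6 CPM in the controls, a difference of 0.52 (SE 0.048, adjusted p = 2.19e-06). Each targeted gene was thus lowest in the libraries labelled as its own knockout, without overlap. Gene counts do not show whether the remaining transcripts code for a protein.

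The knockouts differed at most genes, by small amounts at many and by large amounts mostly in one direction. Of 13799 genes tested, 8150 (59.1%) passed an adjusted p of 0.05. Of these, 4305 (31.2% of tested genes) were higher in the DOT1L KO and 3845 (27.9%) were lower. In 8770 genes (63.6%) every library of one knockout lay above every library of the other. The median size of the differences past the threshold was 0.55 on the log2 scale, and 66% of tested genes lay within 0.5 of no difference. Among the 2506 genes (18.2%) past the threshold with a difference of at least 1 on the log2 scale, 1995 (14.5%) were higher in the DOT1L KO and 511 (3.7%) were lower, so 79.6% of the large differences were higher in the DOT1L KO.

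The large differences sat among genes of low expression. Of the 1264 tested genes under 1 CPM in the mean of the 6 libraries, 687 differed by 1 or more, and 86.8% of those were higher in the DOT1L KO. Between 1 and 10 CPM the numbers were 1288 of 3426, with 80.9% higher. Between 10 and 100 CPM they were 473 of 6529, with 68.3% higher, and at 100 CPM or more 58 of 2580, with 58.6% higher. Counting every gene past the threshold whatever its size, 630 were higher and 108 lower under 1 CPM, and 1481 higher and 597 lower between 1 and 10 CPM. Above that the balance turned, with 1706 higher and 2143 lower between 10 and 100 CPM, and 488 higher and 997 lower at 100 CPM or more. A gene of low mean level that passes the filter on counts through 1 knockout alone has to differ, so the share in the lowest class cannot be read apart from the filter.

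**Figure D1:**
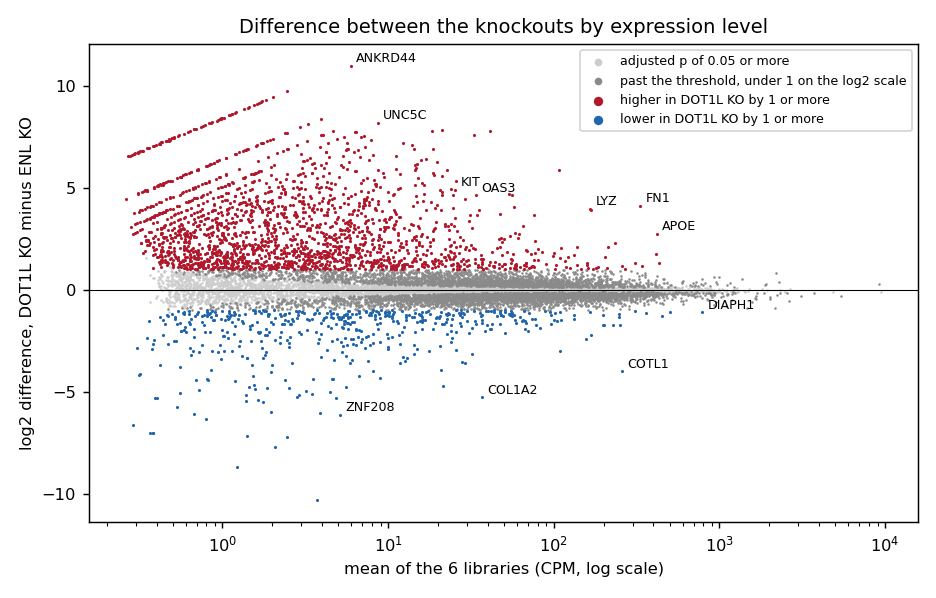
Log2 difference, DOT1L KO minus ENL KO (vertical axis), against the mean CPM of the 6 libraries (horizontal axis, log scale) for the 13799 tested genes, 1 point per gene. Red points are the 1995 genes higher and blue points the 511 genes lower in the DOT1L KO by at least 1 with an adjusted p under 0.05; the red points are crowded at low levels. The slanted rows of points at the left are genes with 0 or a few counts in the ENL KO.

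Beside the controls, which both knockouts share as a reference, the genes with large differences most often had a control level between the knockouts. This held for 1400 (70.2%) of the 1995 higher genes and 352 (68.9%) of the 511 lower genes. The control lay at or below both knockouts in 402 of the higher genes and at or above both in 193. For the 1995 higher genes the median level was 3.61 CPM in DOT1L KO libraries, 0.487 CPM in ENL KO libraries and 1.25 CPM in the controls. For the 511 lower genes it was 1.98, 8.09 and 4.54 CPM in the same order. The genes were chosen for differing between the knockouts, so that gap is fixed by the choice. A wide gap also favours a control level between the knockouts. The same share over all tested genes was not computed, so the place of the controls is described only.

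Several genes were abundant in the DOT1L KO and nearly silent in the ENL KO. ANKRD44, an ankyrin repeat gene, read 11.1, 11.3 and 13.2 CPM in the DOT1L KO libraries and had no count in any ENL KO library. The level was at least 73.1-fold higher against the floor of 3 counts per library, and the controls were nearly silent too at 0.187 and 0.285 CPM. UNC5C, a netrin receptor, read 16.9, 17.2 and 17.5 CPM against 0, 0.0975 and 0.0653 CPM, and 0.234 and 0.333 CPM in the controls. The ratio of its summed counts was 324, with a 95% counting interval from 111 to 1573. For both genes the DOT1L KO stood apart from all other K562 libraries, and the ENL KO and control values were at a few counts or fewer.

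A second set of leading genes was measurable in the controls and moved apart in the knockouts. MBNL3, a muscleblind-like splicing regulator, read 73.0, 88.4 and 84.9 CPM in the DOT1L KO, 0.242, 0.634 and 0.196 CPM in the ENL KO, and 3.69 and 5.08 CPM in the controls (difference 7.77, SE 0.19, adjusted p = 4.75e-11). ABCG2, an efflux transporter that also carries the Junior blood group, read 34.6, 38.4 and 36.9 CPM against 0.0968, 0.293 and 0.0653 CPM, with 2.57 and 2.61 CPM in the controls (7.79, SE 0.20, adjusted p = 5.86e-11). ADAM19, a membrane metalloprotease, read 40.1, 43.1 and 44.0 CPM against 0.194, 0.146 and 0.196 CPM, with 1.17 and 2.19 CPM in the controls (7.86, SE 0.16, adjusted p = 1.2e-11). All 3 genes were lowest in the ENL KO and highest in the DOT1L KO, with the controls between them and no overlap. DPYSL5, a collapsin response mediator of axon guidance, had the same order, at 63.4, 66.4 and 66.8 CPM against 0.29, 0.439 and 0.261 CPM, with 0.888 and 1.66 CPM in the controls. DACH1, ASB9, NGEF, SLC1A3, MARC1 and SLC22A17 complete the 12 leading genes in this direction, with means between 10.8 and 15.6 CPM in the DOT1L KO and at most 0.081 CPM in the ENL KO. All of these 12 genes except MBNL3 had under 10 counts in every ENL KO library. Those genes passed the filter through the DOT1L KO and had to differ.

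Among genes higher by at least 1 on the log2 scale, the largest differences in CPM were those of APOE, FN1, LOC102724908, MAP1A and AHNAK. APOE, the lipid carrier apolipoprotein E, read 757.4, 712.6 and 710.9 CPM in the DOT1L KO against 110.9, 122.6 and 90.6 CPM in the ENL KO (2.75, SE 0.091, adjusted p = 3.55e-10). Its controls, 104.5 and 102.4 CPM, lay within the range of the ENL KO, so the DOT1L KO was the group that stood apart. FN1, which codes for the matrix protein fibronectin, read 598.7, 624.0 and 657.2 CPM against 38.5, 36.7 and 31.9 CPM, a 17.5-fold difference (4.13, SE 0.074, adjusted p = 5.75e-12). Its controls read 781.2 and 830.5 CPM, so here the ENL KO lay far below both other groups. AHNAK, a very large scaffold protein, had the FN1 pattern on a smaller scale, with means of 388 ± 51.1 CPM (SD, n = 3) and 80.01 ± 8.8 CPM (SD, n = 3) and controls at 316.5 and 309.7 CPM.

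Genes lower in the DOT1L KO were fewer, and the controls lay next to the ENL KO in some leading examples and next to the DOT1L KO in others. COL1A2, the alpha 2 chain of type I collagen, read 1.87, 1.8 and 1.95 CPM in the DOT1L KO, 73.0, 73.9 and 69.0 CPM in the ENL KO and 69.8 and 65.9 CPM in the controls (-5.27, SE 0.092, adjusted p = 5.75e-12). TNS4, a member of the tensin family, read 2.24, 1.12 and 1.52 CPM against 41.1, 41.5 and 41.4 CPM, with 35.8 and 34.7 CPM in the controls. PDGFB, a subunit of platelet-derived growth factor, read 2.56, 2.88 and 2.29 CPM against 40.7, 40.5 and 37.1 CPM, with 32.6 and 32.6 CPM in the controls. In these 3 genes the ENL KO lay close to the controls and the DOT1L KO far below both. PRKCH, a protein kinase C, had the same order, with means of 0.883 ± 0.344 CPM (SD, n = 3) against 17.0 ± 1.43 CPM (SD, n = 3) and controls at 21.6 and 21.9 CPM.

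COTL1 showed the opposite arrangement. This gene for coactosin-like protein, which binds filamentous actin, read 33.8, 28.0 and 29.4 CPM in the DOT1L KO and 40.1 and 42.0 CPM in the controls. In the ENL KO it read 492.3, 493.3 and 472.6 CPM, a 16.0-fold difference between the knockouts (-4.00, SE 0.072, adjusted p = 5.75e-12). MCAM, a cell adhesion molecule, read 118.0, 119.6 and 111.9 CPM against 412.0, 372.5 and 372.9 CPM, with 135.2 and 135.3 CPM in the controls. The non-coding RNA LINC00839 read 0.913, 0.475 and 0.714 CPM against 13.7, 11.7 and 12.8 CPM, with 1.26 and 1.04 CPM in the controls. All 3 were high in the ENL KO libraries alone. DIAPH1, a formin that nucleates actin filaments, had the largest difference in CPM among genes lower by at least 1, and read 510.6, 506.9 and 487.3 CPM against 1078, 1087 and 1055 CPM, with 883.0 and 912.8 CPM in the controls (-1.10, SE 0.045, adjusted p = 1.97e-09). PLXNA1 and CAVIN1 differed by -1.10 and -1.30.

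**Figure D2:**
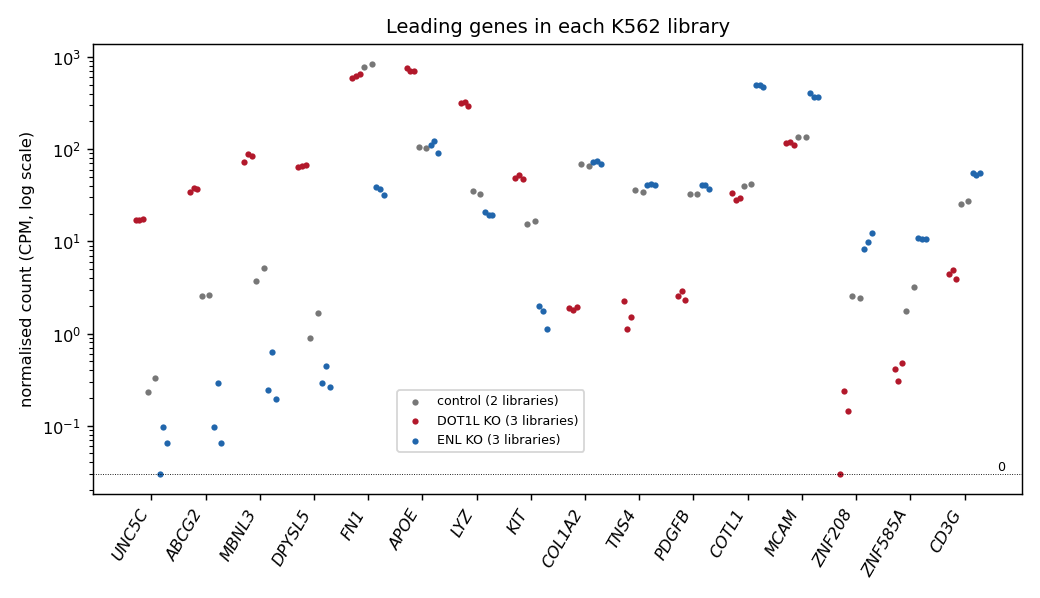
CPM (vertical axis, log scale) of 16 named genes in each K562 library, 1 point per library: red for the 3 DOT1L KO, blue for the 3 ENL KO and grey for the 2 control libraries. Points on the dotted line are libraries with no count. The knockouts do not overlap in any of these genes, and the controls lie with the ENL KO for APOE and COL1A2, nearest to the DOT1L KO for FN1 and COTL1, and between the knockouts for KIT and CD3G.

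The promoters of the abundant leading genes differ in composition, and the stretch before the start is shown for the first genes of each direction with an entry in the promoter table of RefSeq (GRCh38.p14). Each run is the 100 bases before the gene as the count table lists it, 5′ to 3′ on the gene's strand, with the CG dinucleotides in capitals. APOE lies on chromosome 19 (chr19:44905649-44905748, plus strand), FN1 on chromosome 2 (chr2:215436071-215436170, minus strand), DIAPH1 on chromosome 5 (chr5:141619056-141619155, minus strand) and COTL1 on chromosome 16 (chr16:84618097-84618196, minus strand).
APOE: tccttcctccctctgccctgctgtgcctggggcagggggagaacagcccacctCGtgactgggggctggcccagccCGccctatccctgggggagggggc
FN1: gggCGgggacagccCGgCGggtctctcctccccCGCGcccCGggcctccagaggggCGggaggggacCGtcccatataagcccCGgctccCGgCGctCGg
DIAPH1: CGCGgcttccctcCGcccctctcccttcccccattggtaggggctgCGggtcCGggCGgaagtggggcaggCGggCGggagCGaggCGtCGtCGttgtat
COTL1: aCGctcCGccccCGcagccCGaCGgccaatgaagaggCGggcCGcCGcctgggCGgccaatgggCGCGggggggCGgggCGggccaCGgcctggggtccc
The stretch of APOE holds 2 CG dinucleotides, those of FN1 and DIAPH1 12 each and that of COTL1 14. Over the 300 bases of the table's entry (250 before to 50 after the start) the counts were 8, 38, 39 and 35 in that order, against a median of 14 over all 35116 entries. Only 78% of tested genes matched an entry, below the 80% needed, so promoter composition was not compared between groups of genes.

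Of 7 listed members of the DOT1L complex and YEATS readers 6 were tested. Besides the targeted genes only YEATS2, a reader in an acetyltransferase complex, passed the threshold, at 67.2, 69.3 and 73.3 CPM against 55.5, 59.5 and 64.2 CPM (0.23, SE 0.068, adjusted p = 0.0115). Of 16 genes of the super elongation complex and P-TEFb 6 were higher and 3 lower, a share of 56% that is near the 59.1% of all tested genes. AFF3, a scaffold of the complex that is a paralogue of AFF4, read 7.07, 6.92 and 7.09 CPM in the DOT1L KO, against 0.0968, 0.0975 and 0.0653 CPM in the ENL KO and 0.234 and 0.428 CPM in the controls. Its ratio of summed counts was 79.3, with a 95% counting interval from 33.8 to 245. AFF2, a further paralogue, read 0.958, 0.916 and 1.0 CPM against 0.194, 0 and 0 CPM, with 0.0467 and 0.095 CPM in the controls, and the ratio of its summed counts was 13.5, with an interval from 5.03 to 50.8. Both had under 10 counts in every ENL KO library, so they passed the filter through the DOT1L KO and had to differ. EAF2, which binds the elongation factor ELL, was lower in the DOT1L KO (-1.64, SE 0.16, adjusted p = 3.85e-06). CDK9, the kinase of P-TEFb, read 94.6, 87.7 and 88.5 CPM against 73.7, 67.9 and 64.2 CPM (0.39, SE 0.064, adjusted p = 0.00023).

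General initiation factors were lower in the DOT1L KO more often than higher. Of 33 genes of TFIID and the general factors of RNA polymerase II, 32 were tested, 16 were lower, 4 higher and 12 did not pass, with a median of -0.25 beside -0.003 over all tested genes. Over all tested genes 27.9% were lower and 31.2% higher, but at 10 CPM or more lower genes outnumbered higher ones, as given above. CCNH, the cyclin of the TFIIH kinase, read 56.2, 56.8 and 59.3 CPM against 101.3, 102.6 and 112.0 CPM, with 65.6 and 71.3 CPM in the controls (-0.87, SE 0.059, adjusted p = 1.43e-07). GTF2E2, the small subunit of TFIIE, read 28.3, 29.5 and 28.8 CPM against 54.4, 52.1 and 49.7 CPM (-0.85, SE 0.067, adjusted p = 4.93e-07), and here the controls, 61.5 and 59.7 CPM, lay above both knockouts. TAF11, a TFIID subunit on chromosome 6, differed by -0.78, beside a median of -0.20 for that chromosome and -0.39 for its window of 50 neighbouring genes. Of 12 genes of the PAF1 complex list 4 were higher and 1 lower, a share of 42% beside 59.1% of all tested genes. Among the higher genes, LEO1 (0.59), RTF1 (0.36) and WDR61 (0.23) lie on chromosome 15, whose genes had a median difference of 0.42.

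Most lists of erythroid function held more genes higher than lower in the DOT1L KO, with large differences in both directions. K562 cells make embryonic and fetal globins, and the summed level of 15 erythroid markers, among them globins, GATA1 and KLF1, ran from 11800 to 12470 CPM in the DOT1L KO, 9545 to 9835 CPM in the ENL KO and 7362 to 7938 CPM in the controls. Of these markers 12 were higher in the DOT1L KO, 1 was lower and 2 did not pass. The shares over all tested genes were 31.2% higher and 27.9% lower. Of the 11 genes on the list of globins with AHSP, 10 were tested, 6 were higher and 3 lower. Their share past the threshold was 90%, beside 59.1% of all tested genes. HBZ, the embryonic zeta chain, read 2713, 2854 and 2863 CPM in the DOT1L KO, 1540, 1695 and 1483 CPM in the ENL KO and 981 and 1085 CPM in the controls (0.84, SE 0.057, adjusted p = 1.33e-07). HBE1, the embryonic epsilon chain, went the other way, at 1385, 1474 and 1395 CPM against 1807, 1868 and 1879 CPM, with 789 and 830 CPM in the controls (-0.38, SE 0.047, adjusted p = 2.14e-05). Both embryonic chains were above the controls in both knockouts.

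AHSP, the chaperone of free alpha globin, was lower in the DOT1L KO at 9.86, 12.7 and 10.8 CPM against 28.3, 36.1 and 35.8 CPM, with 3.27 and 4.32 CPM in the controls (-1.57, SE 0.12, adjusted p = 3.97e-07). HBD, the delta chain, was higher at 16.8, 18.6 and 17.1 CPM against 6.92, 6.97 and 8.03 CPM (1.27, SE 0.10, adjusted p = 4.97e-07). HBA2 and HBA1, the alpha chains, differed by 1.06 and 0.94, and HBG2 and HBG1, the fetal gamma chains, by 0.36 and 0.34. The members of each of these pairs are near-identical copies between which the counting can split reads, so their separate values are uncertain.

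Of 12 genes of haem synthesis 7 were higher and 3 lower, beside 31.2% and 27.9% of all tested genes. ALAS2, the rate-limiting erythroid enzyme of the pathway, read 348.7, 362.9 and 359.4 CPM against 160.6, 156.6 and 157.5 CPM, with 52.7 and 59.1 CPM in the controls (1.17, SE 0.047, adjusted p = 1.55e-09). SLC25A37, the mitochondrial iron importer mitoferrin, read 426.6, 424.5 and 472.6 CPM against 179.6, 177.2 and 179.9 CPM (1.30, SE 0.055, adjusted p = 2.12e-09), and its controls, 191.4 and 205.5 CPM, lay near the ENL KO. TFR2, the second transferrin receptor, was higher by 1.603 (SE 0.075, adjusted p = 5.39e-09). It lies on chromosome 7, whose genes had a median difference of 0.14, in a window of 50 neighbouring genes with a median of 0.35. UROD, a decarboxylase and the most abundant gene of the haem list, was lower in the DOT1L KO, at 398.8, 370.8 and 349.5 CPM against 501.3, 455.1 and 435.9 CPM, with 364.2 and 329.4 CPM in the controls (-0.32, SE 0.065, adjusted p = 0.00126).

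All 25 genes of the red cell membrane and blood group list passed the threshold, 18 higher and 7 lower, beside 59.1% of all tested genes. BCAM, the Lutheran blood group antigen, read 17.4, 18.1 and 16.4 CPM against 1.94, 2.15 and 2.09 CPM, with 7.62 and 8.65 CPM in the controls (3.07, SE 0.12, adjusted p = 1.06e-09). GYPB, the glycophorin of the S and s antigens, read 31.8, 39.1 and 34.6 CPM against 7.36, 9.8 and 9.53 CPM, with 6.4 and 6.37 CPM in the controls (1.99, SE 0.12, adjusted p = 4.25e-08), and GYPE, a close paralogue with which reads can be shared, differed by 1.52. Both lie on chromosome 4, whose genes had a median difference of 0.30. STOM, the membrane protein stomatin, was the largest difference in the other direction, at 51.3, 52.8 and 45.4 CPM against 256.3, 264.9 and 271.2 CPM, with 75.6 and 80.4 CPM in the controls (-2.40, SE 0.065, adjusted p = 8.06e-11). Carbonic anhydrases split as well, with CA1, an abundant red cell enzyme, at 14.4, 15.7 and 15.6 CPM against 44.4, 46.2 and 42.5 CPM and CA13 higher by 2.37.

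Of 18 tested regulators of the erythroid programme 5 were higher and 6 lower, a share near that of all tested genes, with 1 large difference each way. HMGA2, a chromatin protein of fetal cells, read 2.28, 2.31 and 2.24 CPM against 13.1, 13.4 and 15.1 CPM, with 1.4 and 0.855 CPM in the controls (-2.60, SE 0.12, adjusted p = 5.29e-09). GFI1, a repressor of blood cell fate, was higher in the DOT1L KO by 1.97 (SE 0.26, adjusted p = 4.7e-05), and its controls, 4.49 and 4.09 CPM, lay above both knockouts. LMO2, a partner of GATA factors, differed by -0.75 and IKZF1, the lymphoid regulator Ikaros, by -0.74.

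Genes of platelets and their precursor, the megakaryocyte, also split. Of 25 genes 12 were tested, 6 were higher and 4 lower, and 5 had no count in any of the 6 libraries. The share of tested members past the threshold was 83%, beside 59.1% of all tested genes. TUBB1, the platelet tubulin, read 27.6, 28.3 and 27.8 CPM against 104.5, 115.4 and 118.1 CPM, with 16.0 and 15.8 CPM in the controls (-2.01, SE 0.065, adjusted p = 2.9e-10). ITGA2B and ITGB3 code for the chains of the platelet fibrinogen receptor and differed in opposite directions. ITGA2B read 25.5, 24.7 and 24.8 CPM against 14.5, 10.7 and 10.8 CPM (1.05, SE 0.11, adjusted p = 7.3e-06), and ITGB3 read 9.72, 8.89 and 8.67 CPM against 22.4, 18.6 and 19.4 CPM (-1.15, SE 0.10, adjusted p = 1.29e-06). Both chains were above the controls, which read 3.88 and 5.89 CPM for ITGA2B and 3.46 and 4.09 CPM for ITGB3, in both knockouts. CD9, a tetraspanin, and THBS1, the matrix protein thrombospondin 1, were higher in the DOT1L KO. CD9 had under 10 counts in every ENL KO library, so it passed the filter through the DOT1L KO and had to differ. THBS1 read 17.98, 16.2 and 14.7 CPM against 0.532, 0.439 and 0.457 CPM.

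Surface receptors of blood progenitors were higher in the DOT1L KO wherever they could be tested. Of 15 listed genes 8 were tested, and all 8 were higher by 1 or more, with a median of 4.42. Over all tested genes 14.5% were higher by that much and past the threshold. For 2 of the 8 every ENL KO library had under 10 counts, so these passed the filter through the DOT1L KO and had to differ. KIT, the receptor of stem cell factor, read 48.6, 52.0 and 47.2 CPM against 1.98, 1.75 and 1.11 CPM, with 15.5 and 16.5 CPM in the controls (4.89, SE 0.13, adjusted p = 8.82e-11). CD33, a lectin of myeloid cells, read 44.2, 39.3 and 38.9 CPM against 1.74, 1.22 and 1.37 CPM, with 17.2 and 17.0 CPM in the controls (4.81, SE 0.13, adjusted p = 8.06e-11). ITGA4, the alpha 4 integrin, read 32.8, 38.9 and 36.3 CPM against 1.55, 2.19 and 3.07 CPM. Its controls, 30.3 and 29.5 CPM, lay close to the DOT1L KO. TEK, the receptor of angiopoietins that also marks endothelium, read 5.71, 6.21 and 5.67 CPM, with 1 count in total in the ENL KO and at most 0.095 CPM in the controls. Of 8 endothelial markers 3 were tested and 2 were higher, both with under 10 counts in every ENL KO library, so that they had to differ. CDH5, CLDN5 and EMCN had no count in the knockout libraries. The stem cell gene CD34 was too low to test.

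Markers of granulocytes and monocytes showed the same direction. Of 16 such markers 5 were tested and all 5 were higher in the DOT1L KO, beside 31.2% of all tested genes. However, 2 of the 5, among them CSF3R, had under 10 counts in every ENL KO library and had to differ. LYZ, which codes for lysozyme, read 319.0, 324.0 and 292.6 CPM against 20.6, 19.6 and 19.4 CPM, with 35.5 and 32.8 CPM in the controls (3.97, SE 0.065, adjusted p = 5.75e-12). SPI1, the myeloid transcription factor PU.1, read 49.0, 47.1 and 47.0 CPM against 11.5, 13.8 and 7.96 CPM, with 24.1 and 25.1 CPM in the controls (2.09, SE 0.14, adjusted p = 9.95e-08). CSF3R, the receptor of granulocyte colony-stimulating factor, read 10.2, 9.37 and 9.95 CPM against 0, 0.0488 and 0.13 CPM, with 1.07 and 1.09 CPM in the controls. The summed level of the 16 markers ran from 360 to 390 CPM in the DOT1L KO, from 28.2 to 34.9 CPM in the ENL KO and from 64.6 to 66.6 CPM in the controls, most of it LYZ and SPI1. The granule genes ELANE, PRTN3 and CTSG, which define granulocyte precursors, had no count in any knockout library, as had FCN1 and S100A12, and MPO, AZU1, CD14, S100A8, S100A9 and CEBPE were too low to test. In bulk RNA more cells of a kind and more RNA per cell cannot be told apart.

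Of 11 markers of eosinophils, basophils and mast cells, 4 were tested and all 4 were higher in the DOT1L KO, beside 31.2% of all tested genes. However, 3 of the 4 had under 10 counts in every ENL KO library and had to differ. PRG2, the eosinophil major basic protein, read 116.2, 108.1 and 100.0 CPM against 4.07, 4.44 and 4.31 CPM, with 9.2 and 9.6 CPM in the controls (4.66, SE 0.091, adjusted p = 1.14e-11). The mast cell genes CPA3 and TPSB2 had no count in the knockout libraries. In the other direction stood CD3G and CD3D, CD3 chains of the T cell receptor complex and the only tested genes of 9 listed T and NK cell markers. CD3G read 4.47, 4.89 and 3.95 CPM against 54.8, 52.6 and 54.7 CPM, with 25.5 and 27.5 CPM in the controls (-3.59, SE 0.092, adjusted p = 5.81e-11). The cytotoxic genes CD8A, NKG7, GNLY and KLRD1 had no count in the knockout libraries. The part of other cells in these differences was not tested.

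Of 39 listed interferon-stimulated genes and guanylate-binding proteins 32 were tested, 22 were higher, 4 lower and 6 did not pass, with a median of 1.43. The shares over all tested genes were 31.2% higher and 27.9% lower. Of the 32, 8 had under 10 counts in every library of one knockout, among them MX2 and XAF1, given below. These passed the filter through the other knockout and had to differ. Among the members with a mean of at least 5 CPM the median was 0.20, with 11 past the threshold. The median of 1.43 thus came mostly from members of low level, although OAS3, given below, differed widely at a higher level. The summed level of the list went the other way, at 681.9 to 709.9 CPM in the DOT1L KO, 772.2 to 814.5 CPM in the ENL KO and 861 to 901 CPM in the controls. IFITM1, a membrane protein that hinders virus entry and the list's most abundant member, was lower in the DOT1L KO, at 196.3, 200.4 and 185.8 CPM against 384.5, 394.9 and 350.7 CPM, with 459.5 and 485.4 CPM in the controls (-0.96, SE 0.058, adjusted p = 4.72e-08). OAS3, a sensor of double-stranded RNA, read 65.5, 64.8 and 64.7 CPM against 3.05, 2.19 and 2.61 CPM, with 11.0 and 13.3 CPM in the controls (4.63, SE 0.10, adjusted p = 3.15e-11). MX2, an antiviral GTPase, read 3.83, 4.28 and 5.52 CPM against 0.145, 0.146 and 0.131 CPM, and XAF1, an apoptosis factor, 3.33, 3.09 and 3.33 CPM against 0, 0.0975 and 0 CPM. For both genes the controls were at or below 0.143 CPM, next to the ENL KO. All 4 tested Schlafen genes, of which several are induced by interferon, were higher, beside 31.2% of all tested genes. However, 2 of them, SLFN5 and SLFN13, had under 10 counts in every ENL KO library. These passed the filter through the DOT1L KO and had to differ. SLFN14 differed by 0.34 only. SLFN11, which blocks stalled replication forks, read 20.8, 24.6 and 24.0 CPM against 0.532, 0.244 and 0.587 CPM, with 0.28 and 0.475 CPM in the controls (5.69, SE 0.19, adjusted p = 3.69e-10). B2M, the light chain of MHC class I, was higher by 0.91 (SE 0.09, adjusted p = 3.95e-06) and lies on chromosome 15.

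Of 34 genes of the extracellular matrix and adhesion 27 were tested, 18 were higher and 7 lower, beside 31.2% and 27.9% of all tested genes. The median was 1.00, or 0.49 among members with a mean of at least 5 CPM. For 2 of the 27, among them TIMP4, every library of one knockout had under 10 counts. These passed the filter through the other knockout and had to differ. Collagens moved apart. COL1A1, the alpha 1 chain of type I collagen, read 116.7, 120.9 and 115.2 CPM in the DOT1L KO against 14.7, 12.9 and 13.2 CPM in the ENL KO, with 10.1 and 11.7 CPM in the controls (3.11, SE 0.070, adjusted p = 3.15e-11). Its partner chain COL1A2 was lower in the DOT1L KO, as given above. The order of the knockouts was thus opposite for the chains of the same collagen. COL3A1 (4.29) and LAMB1, the laminin beta 1 chain (3.67), were higher in the DOT1L KO. TIMP4, an inhibitor of matrix metalloproteases, read 24.5, 25.4 and 23.7 CPM against 0.0484, 0.341 and 0.0653 CPM.

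Of 42 genes of the HOX clusters with MEIS and PBX, 25 were tested, 11 were higher and 2 lower, a share of 52% beside 59.1% of all tested genes, and 7 were higher by 1 or more. For 5 of the 25 every library of one knockout had under 10 counts, so these passed the filter through the other knockout and had to differ. HOXC11 read 2.28, 1.87 and 1.76 CPM in the DOT1L KO and had no count in the ENL KO, at least 12.1-fold higher, and HOXB13 read 1.96, 2.31 and 1.52 CPM with no count in the ENL KO, at least 11.9-fold higher. HOXD13 read 1.32, 1.83 and 1.81 CPM in the DOT1L KO, with 1 count in total in the ENL KO. The controls held at most 0.095 CPM of each of these 3 genes, so for them the DOT1L KO was the only group with a level of 1 CPM or more. PBX3, a partner of HOX proteins, read 6.8, 7.84 and 8.0 CPM against 2.86, 2.44 and 3.52 CPM.

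Genes of the actin cytoskeleton had large differences in both directions. Of 29 tested 10 were higher and 12 lower, a share of 76% beside 59.1% of all tested genes. For 3 of the 29, among them CALD1, every library of one knockout had under 10 counts. These passed the filter through the other knockout and had to differ. LCP1, the leukocyte actin bundler L-plastin, read 334.8, 362.3 and 332.6 CPM against 83.3, 81.1 and 75.2 CPM, with 364.7 and 378.2 CPM in the controls (2.102, SE 0.060, adjusted p = 1.13e-10), so the ENL KO stood apart. CALD1, the actin-binding protein caldesmon, read 2.33, 3.26 and 2.81 CPM with 1 count in total in the ENL KO. COTL1 and TNS4, described above, were the largest differences the other way.

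**Figure D3:**
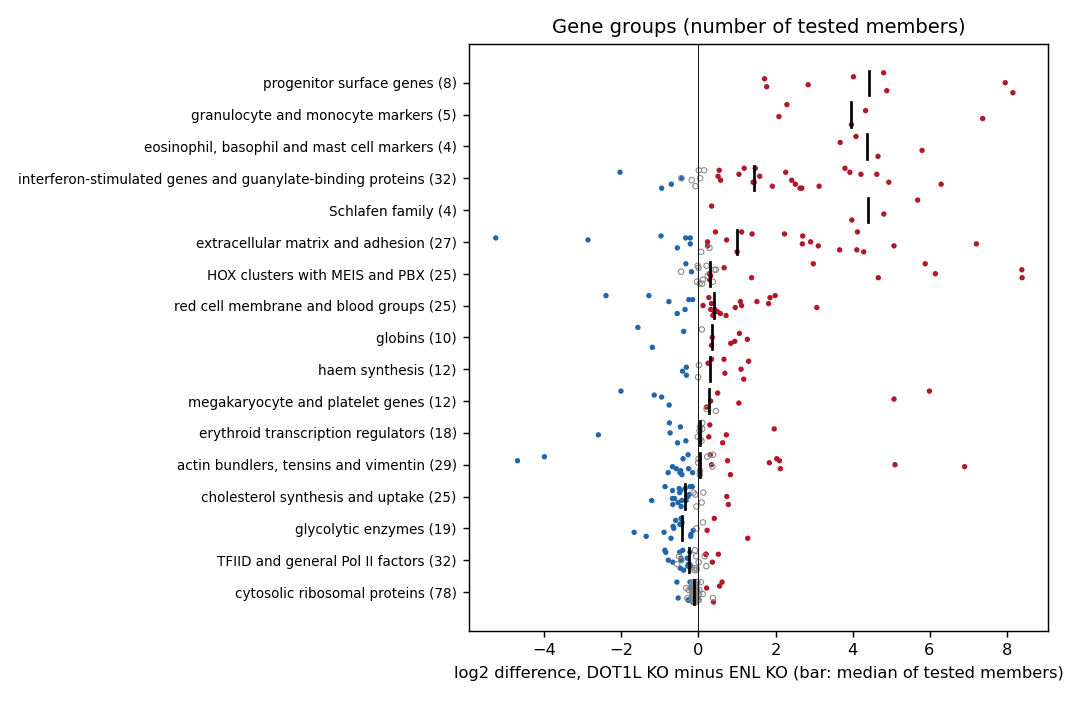
Log2 difference, DOT1L KO minus ENL KO (horizontal axis), of every tested member of 17 gene lists (rows, number of tested members in brackets). Red and blue points are genes past an adjusted p of 0.05 (higher and lower in the DOT1L KO), open points are the others, and the black bar is the median. Progenitor and myeloid genes lie wholly to the right, erythroid and platelet lists spread to both sides, and the medians of the cholesterol and glycolysis lists lie at -0.35 and -0.44.

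Genes of cholesterol synthesis and of glycolysis were lower in the DOT1L KO more often than higher. Of 25 genes of cholesterol synthesis and uptake 18 were lower, 2 higher and 5 did not pass, with a median of -0.35. Over all tested genes 27.9% were lower and 31.2% higher, but at 10 CPM or more lower genes outnumbered higher ones, as given above. FDFT1, the squalene synthase, read 240.4, 252.4 and 243.3 CPM against 368.6, 379.2 and 384.6 CPM, with 566.3 and 591.6 CPM in the controls (-0.62, SE 0.047, adjusted p = 3.8e-07). STARD4, a sterol transporter, read 29.9, 35.2 and 33.6 CPM against 66.0, 74.3 and 89.8 CPM, with 72.4 and 76.8 CPM in the controls (-1.22, SE 0.11, adjusted p = 1.23e-06). For FDFT1 the controls were the highest group, whereas for STARD4 they lay within the range of the ENL KO. PMVK, phosphomevalonate kinase, was higher in the DOT1L KO, at 14.5, 12.6 and 12.1 CPM against 8.42, 8.0 and 6.98 CPM (0.74, SE 0.11, adjusted p = 0.000143).

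Of 19 glycolytic genes 14 were lower in the DOT1L KO and 3 higher, beside 27.9% and 31.2% of all tested genes. As given above, lower genes outnumbered higher ones among all tested genes at 10 CPM or more. The median was -0.44. LDHA, lactate dehydrogenase A, read 755.0, 799.0 and 735.8 CPM against 1141, 1157 and 1154 CPM, with 1242 and 1299 CPM in the controls (-0.59, SE 0.048, adjusted p = 6.06e-07). SLC2A3, a glucose transporter, read 137.8, 141.3 and 138.7 CPM against 351.6, 360.2 and 358.9 CPM, with 280.5 and 305.9 CPM in the controls (-1.36, SE 0.047, adjusted p = 4.26e-10). ALDOC, an aldolase, differed by -1.67. ENO2, the neuronal enolase, was the largest difference the other way at 1.28. Heat shock genes, listed as a sign of stress, were lower in 7 of 10 cases, beside 27.9% of all tested genes. The excess of lower genes at 10 CPM or more stands beside this count too. Their summed level ran from 5784 to 6122 CPM in the DOT1L KO, 7209 to 7377 CPM in the ENL KO and 6852 to 7241 CPM in the controls.

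Cell cycle and survival genes gave single large differences. CCND1, cyclin D1, read 20.6, 17.0 and 19.8 CPM against 84.0, 84.3 and 80.3 CPM, with 19.9 and 21.4 CPM in the controls (-2.12, SE 0.079, adjusted p = 8.27e-10), so the ENL KO stood apart. CCND2, cyclin D2, went the other way at 247.4, 246.3 and 228.3 CPM against 132.8, 125.9 and 120.6 CPM, with a mean of 254 CPM in the controls (0.93, SE 0.057, adjusted p = 5.25e-08). CDK6, a kinase that both cyclins activate, differed by -1.10. The order of the knockouts was thus opposite for these cyclins, and in both the DOT1L KO lay next to the controls. Of 20 genes of mitosis and proliferation 9 were lower and 5 higher, none by 1 or more. Their share past the threshold was 70%, beside 59.1% of all tested genes. BMF, a pro-apoptotic member of the BCL2 family on chromosome 15, read 14.3, 12.8 and 12.3 CPM against 1.6, 1.85 and 1.89 CPM (2.88, SE 0.14, adjusted p = 5.64e-09). Of the 13 tested family members 7 were lower and 2 higher, a share of 69% beside 59.1% of all tested genes.

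Other single genes with large differences were ALDH1A1 and ALDH1A2, enzymes that make retinoic acid. ALDH1A1 read 27.6, 32.7 and 28.5 CPM in the DOT1L KO against 0.532, 0.341 and 0.326 CPM in the ENL KO, with 33.9 and 30.9 CPM in the controls (6.17, SE 0.17, adjusted p = 9.54e-11). ALDH1A2 read 153.9, 154.9 and 142.6 CPM against 350.8, 344.1 and 334.2 CPM, with 532.1 and 525.2 CPM in the controls (-1.19, SE 0.052, adjusted p = 3.1e-09). The former was lost in the ENL KO libraries alone, and the latter was below the controls in both knockouts. Of 28 tested genes of the ATF4 response to amino acid shortage 11 were higher and 6 lower, a share of 61% that is near the 59.1% of all tested genes. SLC7A11, the cystine importer, was higher by 1.29 and PHGDH, the first enzyme of serine synthesis, by 1.06.

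Of 17 tested genes of erythropoietin and JAK-STAT signalling 8 were higher and 5 lower, with 1 difference of 1 or more. Their share past the threshold was 76%, beside 59.1% of all tested genes. STAT5A, a transcription factor that the receptor activates, read 347.8, 359.3 and 357.8 CPM against 566.1, 546.4 and 531.9 CPM (-0.63, SE 0.047, adjusted p = 3.3e-07), and its controls, 867.4 and 886.5 CPM, were above both knockouts. SOCS1, a feedback inhibitor of the same pathway, read 21.9, 21.5 and 25.1 CPM against 10.9, 12.2 and 7.77 CPM, with 35.0 and 27.8 CPM in the controls (1.13, SE 0.14, adjusted p = 1.93e-05). In the MYC and MAX network 5 of 12 tested genes were higher and 2 lower, a share of 58% against 59.1% of all tested genes. MYCL, a MYC paralogue, read 13.3, 12.2 and 13.6 CPM against 5.86, 5.85 and 4.76 CPM, with 8.22 and 7.56 CPM in the controls. Of 22 tested immediate early genes 10 were higher and 4 lower, a share of 64% that is near the 59.1% of all tested genes. FOSL2, a partner of JUN, differed by 1.42 and EGR2, a zinc finger factor, by -2.05. EGR2 had under 10 counts in every DOT1L KO library, so it passed the filter through the ENL KO and had to differ. Of 15 genes of the SAGA acetyltransferase list 5 were higher and 3 lower, a share of 53%, below that of all tested genes. SUPT3H, a subunit of its core, read 6.34, 7.6 and 6.95 CPM against 15.3, 14.5 and 14.6 CPM (-1.08, SE 0.10, adjusted p = 2.32e-06). SUPT3H lies on chromosome 6, in a window of 50 neighbouring genes with a median of -0.04.

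Genes at or under a few counts in one knockout and measurable in the other were far more often low in the ENL KO. In 271 of the 13799 tested genes every ENL KO library had 3 counts or fewer while the DOT1L KO mean was at least 1 CPM. Of these, 99 were also at 3 counts or fewer in both controls, 42 had no count in any ENL KO library, and 39 reached 5 CPM or more in the DOT1L KO. The reverse held for 19 genes, of which 4 were also at that limit in both controls and 2 reached 5 CPM. All these genes passed the filter on counts through 1 knockout alone and had to differ, so only their number in each direction is described. The libraries of the DOT1L KO held 17896 to 18243 genes with a count and those of the ENL KO, whose totals were given above, 15970 to 16481. The part of depth in these numbers was not tested. B3GAT1, which makes the HNK-1 carbohydrate, was the clearest gene of the reverse kind, at 7.26, 7.66 and 7.57 CPM in the ENL KO with no count in the DOT1L KO, at least 58.9-fold lower there, and 0.42 and 0.475 CPM in the controls.

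The other named genes at the limit in the DOT1L KO were ZIK1, ZNF486 and ZNF461, which are zinc finger genes of chromosome 19, as are ZNF208, ZNF585A and ZNF772 among the 12 leading genes of this direction. Chromosome 19 holds large clusters of genes for zinc finger proteins, most of them repressors with a KRAB domain. ZNF208 read 0, 0.237 and 0.143 CPM in the DOT1L KO against 8.18, 9.95 and 12.3 CPM in the ENL KO, with 2.57 and 2.42 CPM in the controls. ZNF585A read 0.411, 0.305 and 0.476 CPM against 10.9, 10.5 and 10.6 CPM, with 1.77 and 3.23 CPM in the controls. ZNF486 read 0.0913, 0 and 0 CPM against 5.08, 5.07 and 4.57 CPM, and here the controls, 6.45 and 5.46 CPM, were above the ENL KO. For ZNF208 and ZNF585A the controls lay between the knockouts. ZNF208 and the genes at the limit had under 10 counts in every DOT1L KO library, so they passed the filter through the ENL KO and had to differ.

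Because 6 of these named genes were of one kind, all zinc finger genes of chromosome 19, taken by their symbols, were then described; this set was chosen after its leading values were seen and is given no test of its own. Of 292 listed 227 were tested, 176 were lower in the DOT1L KO, 6 were higher and the rest did not pass, beside 27.9% of all tested genes lower. A difference of at least 1 was reached by 108 of the lower and 2 of the higher genes. Over all tested genes 3.7% were lower and 14.5% higher by that much and past the threshold. The set holds genes at the limit in the DOT1L KO, such as ZNF486 and ZNF461, which had to differ. Their part in these counts and in the median was not determined. The median was -0.91, whereas the 833 other tested genes of chromosome 19 had a median of -0.05 and the 266 zinc finger genes of the other chromosomes one of 0.003. Against the controls, which both share, the 227 genes had a median of -0.33 with DOT1L lost and 0.61 with ENL lost. These genes were thus on balance below the control level in the DOT1L KO and above it in the ENL KO. Many are close paralogues, between which reads can be split.

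Genes of some chromosomes differed together, along the whole of chromosome 15 and along stretches of others. Among 10268 genes of at least 5 CPM the median difference was -0.06. The 317 such genes of chromosome 15 had a median of 0.42, and 92.7% of them were higher in the DOT1L KO. Over the 9 pairs of a DOT1L KO with an ENL KO library this median ran from 0.38 to 0.47. Chromosome 4 had a median of 0.30, chromosome 7 of 0.14 and chromosome 6 of -0.20, while the 19 others lay between -0.17 and 0.007. Between replicates of one knockout no chromosome's median exceeded 0.12 in size. Against the shared controls chromosome 15 stood at -0.02 for the DOT1L KO and at -0.49 for the ENL KO, and chromosome 4 at -0.01 and -0.31, so both shifts lay in the ENL KO.

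**Figure D4:**
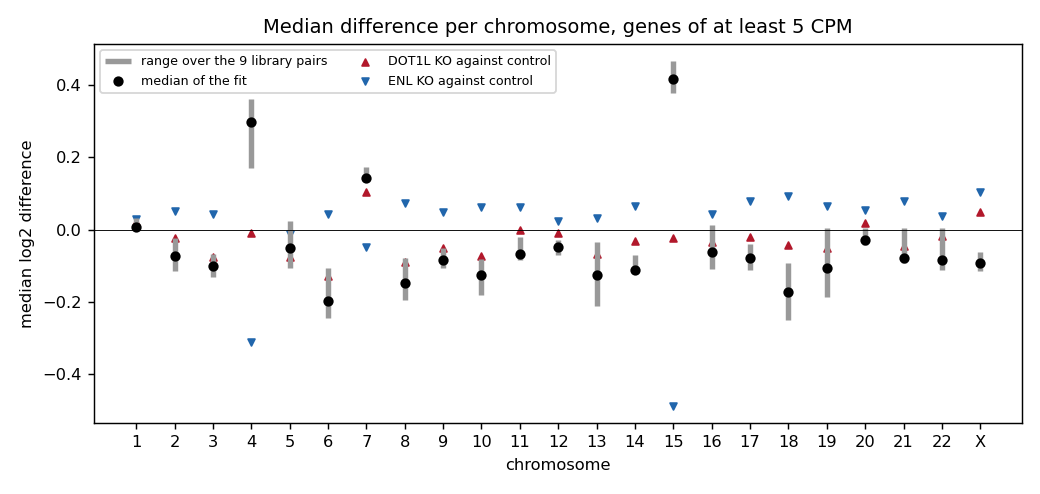
Median log2 difference of the genes of at least 5 CPM on each chromosome (horizontal axis). Black points are DOT1L KO minus ENL KO with the range over the 9 library pairs in grey, red triangles DOT1L KO against control and blue triangles ENL KO against control. Chromosomes 15 and 4 lie apart, at 0.42 and 0.30, with the blue triangles at -0.49 and -0.31 and the red ones near 0.

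Along the chromosomes the shifts had edges. In 190 windows of 50 neighbouring genes, 23 windows had a median of at least 0.25 in size, 16 of them positive. All 6 windows of chromosome 15 were positive, from 0.41 to 0.47. On chromosome 4 the first 3 windows lay between 0.009 and 0.067 and the last 3, from 75949906 to 158672255, between 0.36 and 0.49. On chromosome 7 the last 5 windows, from 92198969 to 156677126, lay between 0.32 and 0.41, with the DOT1L KO above the controls by 0.20 to 0.34 and the ENL KO below them by as much as -0.29. On chromosome 1 only the neighbouring windows from 96721605 to 145844401 reached 0.25 in size, at 0.39 and 0.34. Of the 7 negative windows 3 lay at the start of chromosome 6 and 1, at -0.50, on chromosome 19 from 51991334 to 55645623, bounded by the zinc finger genes ZNF615 and ZNF581. Between replicates no window's median exceeded 0.21 in size.

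**Figure D5:**
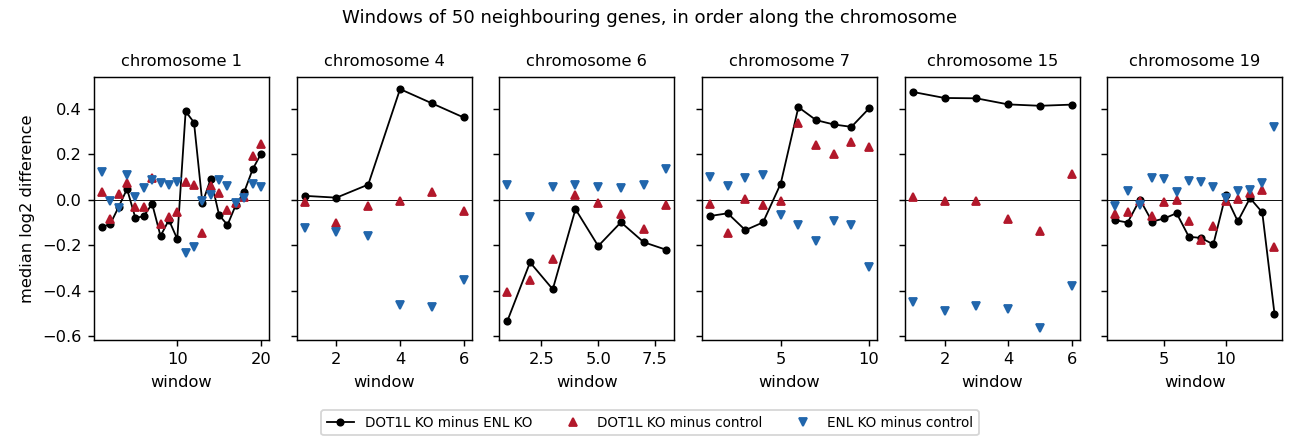
Median log2 difference (vertical axis) in successive windows of 50 genes of at least 5 CPM along 6 chromosomes (horizontal axis, window number). Black points with lines are DOT1L KO minus ENL KO, red triangles DOT1L KO against control and blue triangles ENL KO against control. The black line steps up within chromosomes 4 and 7, is high along all of chromosome 15, and drops in the last window of chromosome 19.

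DNA copy number was not measured in these libraries, and the source of the chromosome shifts was not tested. Besides the genes given above with their chromosome, ABCG2, UNC5C, KIT and SLC7A11 lie on chromosome 4, COL1A2, CALD1, CDK6, IKZF1 and LAMB1 on chromosome 7, and THBS1 and ALDH1A2 on chromosome 15, so the medians of these chromosomes stand beside their differences too. KIT and IKZF1 lie outside the shifted stretches, in windows with medians of 0.067 and -0.10. MAP1A, a microtubule-associated protein of chromosome 15, read 635.8, 598.9 and 607.4 CPM against 244.7, 257.3 and 244.8 CPM (1.30, SE 0.049, adjusted p = 9.32e-10), well above its chromosome's median. The proteasome gene PSMA4 (0.52) and the ribosomal gene RPLP1 (0.61), both the largest differences of their lists and both on chromosome 15, lay near it. Over all 78 ribosomal protein genes of the cytosol 21 were lower, 4 higher and 53 did not pass, with a median of -0.11. Their share past the threshold was 32%, beside 59.1% of all tested genes. The number past the threshold, 25, was 14 with upper-quartile scaling and 14 without the second ENL KO library, so it depended on the setting. Without the genes of chromosomes 4, 6, 7 and 15, an alternative chosen after the data were seen, 6529 of 11450 genes passed the threshold, and 1530 were higher and 442 lower by 1 or more.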

How the data were processed

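Polyadenylated RNA of K562 cells was sequenced as dUTP strand-marked libraries, per the labels' protocols. The authors deposited whole-number fragment counts per gene for 28131 genes, not normalised. The submitters' processing notes name fastp 0.13.1, Bowtie2 2.3.4.1, HISAT2 2.1.0, deepTools, featureCounts 1.6.1, hg38 and hg19 with no role; whether strand was used in counting is not given in the sources used here, so antisense and overlapping genes are uncertain. Of the 26353 symbols found in RefSeq GRCh38.p14, 25096 lay on the same single chromosome and 1 of these did not overlap the RefSeq position, so coordinates are on GRCh38.

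The 6 knockout libraries were fitted with edgeR 4.0.16 in R 4.3.3 (filterByExpr with a minimum count of 10 and total of 15, TMM scaling, glmQLFit and glmQLFTest), with Benjamini-Hochberg adjustment over all 13799 genes and a threshold of 0.05. The biological coefficient of variation was 6.64%. SEs were derived from the F statistic. Control CPM values use the same scale. Differences against controls come from a fit of all K562 groups. Folds of genes with few counts are ratios of summed counts with exact 95% intervals. The test was checked on simulated data. The members, gene lists and rules were chosen with earlier results of these data known. Genes named are the 12 largest differences in each direction (mean of at least 5 CPM, groups apart), the 5 largest in CPM in each direction (log2 of at least 1 in size, groups apart), the targeted genes, up to 4 leading genes and the most abundant gene of each list, and 4 detection-limit genes in each direction. CA1, CDK9, COL1A1, FDFT1, GYPE, HBA1, HBE1, HBG1, HBZ, ITGA2B, ITGA4, LAMB1, LCP1, LDHA, PBX3, SPI1 and the zinc finger set were chosen after their values were seen, and some genes under the rule are not reported here. Alternatives were other scalings, filters, tools (DESeq2 1.42.0, limma 3.58.1 voom), thresholds, the replicate block and leaving out each library.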

Additional observations from a re-analysis of the deposited data

How the results depend on the processing

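The number of genes past the threshold, 8150, ran from 5752 (mean of at least 5 CPM) to 9208 over the alternatives at an adjusted p of 0.05, and was 6449 at 0.01. It was 7276 to 8070 when each library was left out in turn, 7627 with DESeq2 and 8128 with limma voom. The number past it by at least 1 on the log2 scale, 2506, was 889 (647 higher and 242 lower) among genes with a mean of at least 5 CPM, where fewer genes are tested, and 2536 to 2683 when each library was left out. The share of these that were higher in the DOT1L KO, 79.6%, ran from 72.8% under that filter to 81.8% with no filter on low counts. Of the 124 named genes, 123 kept their direction and side of the threshold under all the alternatives that tested them; YEATS2 missed it without the third DOT1L KO library (0.20). The median of 10 epithelial and fibroblast markers, -0.20 over 3 tested genes, became 2.096 with the filter at 5 CPM, which left fewer genes.

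The labels give both knockouts replicate numbers 1 to 3. Deviations from the group means correlated between libraries of the same number with Pearson's r of 0.25, 0.07 and 0.11 across genes, and the second DOT1L KO library correlated best with the third ENL KO library (0.08), so the numbers were not taken as pairs. With the replicate number as a block 9208 genes passed (4705 higher), and 53 of the 78 ribosomal protein genes in place of 25. Depth limits the genes under 1 CPM most, where 3 counts are worth 0.102 to 0.196 CPM.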
